A study of Xenopus tropicalis with 4 samples.

Results

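The normal transcriptome of X. tropicalis animal caps (ACs) at the neurula stage NF16 is described here from the control morpholino (CoMo) samples alone. These are 2 of the 4 samples of the series, CoMo 1 and CoMo 2, and the other samples, from ACs injected against suv4-20h1 and suv4-20h2, are not used here. An AC is an explant of the prospective ectoderm that is cut from the blastula and develops into an epidermis in culture. Both blastomeres of the embryo were injected with a standard control morpholino, an antisense oligonucleotide without a target in the embryo, and the ACs of each sample were pooled and staged by their sibling embryos. Total RNA was depleted of ribosomal RNA and made into stranded libraries. The members were chosen by their treatment label. With 1 group there is no contrast to test, and all values below are levels in the control ACs and differences between the pools, which the series describes as biological replicates.

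The epidermis of the Xenopus larva is mucociliary, like the lining of the vertebrate airway. Multiciliated cells (MCCs) carry many motile cilia and drive a flow of liquid over the skin, goblet cells of the outer layer release mucus-like proteins, ionocytes move protons, bicarbonate and chloride, and small secretory cells store serotonin. Below them lies a layer of basal cells that rests on a basement membrane and is marked by the transcription factor Tp63. Notch signalling decides which cells of the deep layer become MCCs or ionocytes, and these then move into the outer layer.

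CoMo 1 held 17027883 and CoMo 2 held 47375336 reverse-strand read pairs on genes, so that CoMo 2 was 2.78 times as deep. One read pair was worth 0.0587 CPM (counts per 1000000 read pairs on genes) in CoMo 1 and 0.0211 CPM in CoMo 2. A gene listed at 0 reads could thus have up to 0.176 CPM in CoMo 1 and up to 0.0633 CPM in CoMo 2, the level of 3 read pairs. CPM is a gene's share of the read pairs on genes. It grows with transcript length, and transcript lengths were not at hand, so the order of genes given below is an order of read shares and not of numbers of transcripts. In a bulk sample, fewer cells of a type and less RNA per cell cannot be told apart. The deposited identifiers carry no symbols. Of 34177 identifiers, 6622 could be named, mostly because they ranked near the top of a comparison that the study itself made, and some of those comparisons used these samples.

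Of the 34177 identifiers, 22832 had a read in either sample, 19102 had reads in both, and 11345 had none. At least 1 CPM was reached in both samples by 12934 genes, 10 CPM by 8002 and 100 CPM by 1647, while 84 genes reached 1000 CPM. The median gene with a read had 3.03 CPM, and the median named gene had 18.2 CPM. Among named genes with a read, 58.5% had at least 10 CPM in both samples and 13.5% had at least 100 CPM. The gene lists below consist of named genes, so their levels are best read beside these values. The read pairs were concentrated in few genes. The 10 genes with the highest mean CPM took 16.6% of the read pairs in CoMo 1 (95% Wilson interval 16.59 to 16.63%) and 15.3% in CoMo 2 (15.26 to 15.28%). These intervals cover counting error only and did not overlap. The top 100 genes took 31.7% in CoMo 1 and 30.5% in CoMo 2, and 86 genes were among the top 100 of each sample. The identifier at the head of the list, gene8482, has no name in the sources used here and took 4.63% of the read pairs in CoMo 1 and 5.54% in CoMo 2.

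The 25 genes with a symbol and the highest mean CPM together took 8.33% of the read pairs in CoMo 1 and 8.87% in CoMo 2. Cytoplasmic actin led the list, with 16653 CPM of actg1 in CoMo 1 and 14913 CPM in CoMo 2. Its close relative actb had 6304 CPM in CoMo 1 and 4887 CPM in CoMo 2. Reads that fit both actins equally well were not counted for either. Non-muscle myosin (myh9, 3216 CPM in CoMo 1 and 2842 CPM in CoMo 2) and the actin crosslinker filamin (flna, 1446 CPM and 1823 CPM in the same order) also ranked among the 25. The giant scaffold protein gene ahnak had 4452 CPM in CoMo 1 and 5507 CPM in CoMo 2.

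Among the other leading genes, cirbp, which encodes a cold-inducible RNA-binding protein, had 7752 CPM in CoMo 1 and 8682 CPM in CoMo 2. gfpt1, the enzyme at the entry of the hexosamine pathway that supplies sugars for glycosylation, had 5357 CPM in CoMo 1 and 9254 CPM in CoMo 2. Its ratio of 1.73 between the samples was the widest of the 25 genes. The chromatin protein gene hmgn1 differed least, with 4101 CPM in CoMo 1 and 4100 CPM in CoMo 2. Further chromatin and RNA-binding genes on the list were hmgb2, h2afz, ddx5, hnrnpab and hnrpk, and translation, protein turnover and signalling were represented by eef1a1, ubc and ywhaq.

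Epithelial genes were already among the 25. The adherens junction genes ctnnb1 (2652 CPM in CoMo 1, 3222 CPM in CoMo 2) and cdh1, E-cadherin (1450 CPM in CoMo 1, 1658 CPM in CoMo 2), stood beside the larval keratin gene xk81a1 (2177 CPM in CoMo 1, 2235 CPM in CoMo 2). trim29 had 2094 CPM in CoMo 1 and 1898 CPM in CoMo 2. Genes whose products are parts of cilia appeared as well, though which cells their reads came from was not tested. tubb4b, a beta-tubulin of ciliary axonemes, had 3083 CPM in CoMo 1 and 4049 CPM in CoMo 2, and crocc2, a relative of the ciliary rootlet protein rootletin, had 1843 CPM in CoMo 1 and 2456 CPM in CoMo 2. canx and calr, the lectin chaperones of the endoplasmic reticulum, had 1551 and 1368 CPM in CoMo 1, against 1693 and 1748 CPM in CoMo 2. The last gene on the list not yet given is xnf7-b, a nuclear factor gene, with 1518 CPM in CoMo 1 and 1603 CPM in CoMo 2. In 15 of the 25 genes the level was higher in CoMo 2 and in 10 it was higher in CoMo 1.

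**Figure D1:**
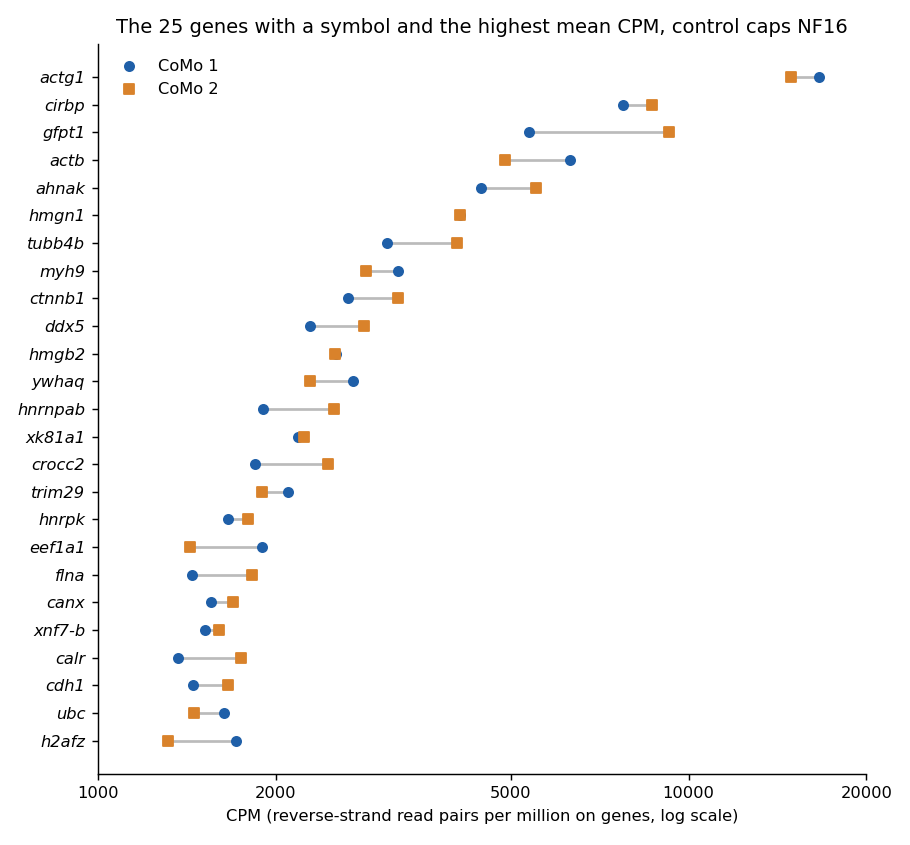
CPM in CoMo 1 (circles) and CoMo 2 (squares) of the 25 genes with a symbol and the highest mean CPM, on a log axis, with a grey line joining the samples of a gene. actg1 stands apart at the top, with 16653 CPM in CoMo 1 and 14913 CPM in CoMo 2, and gfpt1 has the widest gap.

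Genes of the MCC lists were read throughout, from the regulators to the parts of the axoneme. The centriole and intraflagellar transport genes are not confined to MCCs, and a bulk sample does not show which cells they were read from. Each of the 5 listed regulators exceeded 10 CPM in both samples, with a median of 101 CPM. Multicilin (mci-like), the coactivator that starts the MCC programme, had 56.6 CPM in CoMo 1 (95% Wilson interval 53.2 to 60.3 CPM) and 78.0 CPM in CoMo 2 (75.5 to 80.5 CPM). foxj1, a forkhead factor for motile cilia, had 93.3 CPM in CoMo 1 and 116 CPM in CoMo 2. rfx2, which acts on cilium genes together with Foxj1, had 323 CPM in CoMo 1 and 382 CPM in CoMo 2. These 3 genes were higher in CoMo 2, as was foxn4, another forkhead gene of MCCs, with 80.1 CPM in CoMo 1 and 122 CPM in CoMo 2. The p53 relative tp73 was level, with 95.1 CPM in CoMo 1 and 91.4 CPM in CoMo 2.

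Of the 10 genes for centriole amplification, which gives each MCC its many basal bodies, 8 exceeded 10 CPM in both samples. cep135, a centriole scaffold gene, had 210 CPM in CoMo 1 and 202 CPM in CoMo 2. plk4, the kinase that starts centriole duplication, had 165 CPM in CoMo 1 and 157 CPM in CoMo 2, and cep152, which recruits it, had 110 CPM in CoMo 1 and 131 CPM in CoMo 2. cdc20b, whose gene hosts the miR-449 family in vertebrates, had 94.3 CPM in CoMo 1 and 141 CPM in CoMo 2. ccdc67, which encodes the deuterosome protein Deup1, had 57.3 CPM in CoMo 1 and 62.9 CPM in CoMo 2. ccdc78, also of the deuterosome, had the lowest value of the list, 3.82 CPM in CoMo 1 and 3.42 CPM in CoMo 2.

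The machinery of ciliary motion was read broadly. All 22 identifiers for axonemal dyneins and their assembly factors exceeded 10 CPM in both samples and 12 exceeded 100 CPM. The 8 dynein heavy chain genes (dnah) had a median of 189 CPM and together 1541 CPM in CoMo 1 and 1530 CPM in CoMo 2. dnah7, an inner arm heavy chain, had 369 CPM in CoMo 1 and 342 CPM in CoMo 2, and dnah6, of the same kind, had 252 CPM in CoMo 1 and 253 CPM in CoMo 2. The outer arm docking genes ccdc151 and armc4 had 329 and 316 CPM in CoMo 1, against 290 and 245 CPM in CoMo 2. The name ccdc40, which stands for a ruler of the axonemal repeat, is shared by 2 identifiers. The lower of them had 23.7 CPM in CoMo 1 and 17.6 CPM in CoMo 2, the lowest of the list.

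Of the 38 identifiers for axoneme structure, 36 exceeded 10 CPM in both samples and 13 exceeded 100 CPM. tubb4b stood far above the rest and was higher in CoMo 2, whereas 33 of the other 37 identifiers were higher in CoMo 1. After tubb4b, the central pair genes spag6 and hydin had 442 and 348 CPM in CoMo 1, against 378 and 436 CPM in CoMo 2. rsph6a, of the radial spokes, had 304 CPM in CoMo 1 and 271 CPM in CoMo 2. The 4 tektin genes, whose filaments line the doublet microtubules, were all higher in CoMo 1, with a summed level of 785 CPM there and of 499 CPM in CoMo 2. The lowest value was that of the second cfap58 identifier, 5.34 CPM in CoMo 1 and 5.32 CPM in CoMo 2.

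Intraflagellar transport, which carries the parts into the growing cilium, followed with 20 of 21 identifiers above 10 CPM and 6 above 100 CPM in both samples. The retrograde motor gene dync2h1 had 189 CPM in CoMo 1 and 216 CPM in CoMo 2, and ift122, of the retrograde complex, had 200 CPM in CoMo 1 and 178 CPM in CoMo 2. ift88, of the anterograde complex, had 148 CPM in CoMo 1 and 117 CPM in CoMo 2, and ttc26, of the same complex, had 146 CPM in CoMo 1 and 110 CPM in CoMo 2. The second wdr19 identifier was lowest, with 6.11 CPM in CoMo 1 and 4.98 CPM in CoMo 2.

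Together, the 96 identifiers of the MCC lists and of intraflagellar transport took 1.47% of the read pairs in CoMo 1 and 1.43% in CoMo 2. Without tubb4b, the remaining 95 took 1.17% in CoMo 1 and 1.03% in CoMo 2. The share without tubb4b was thus lower in the sample in which 4 of the 5 regulators were higher. The median of the 96 was 99.4 CPM and 91 of them exceeded 10 CPM in both samples, whereas 58.5% of named genes with a read did so. Most names came from comparisons made by the study, some with these samples, so the naming may have favoured genes high in them. How far it did was not tested.

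**Figure D2:**
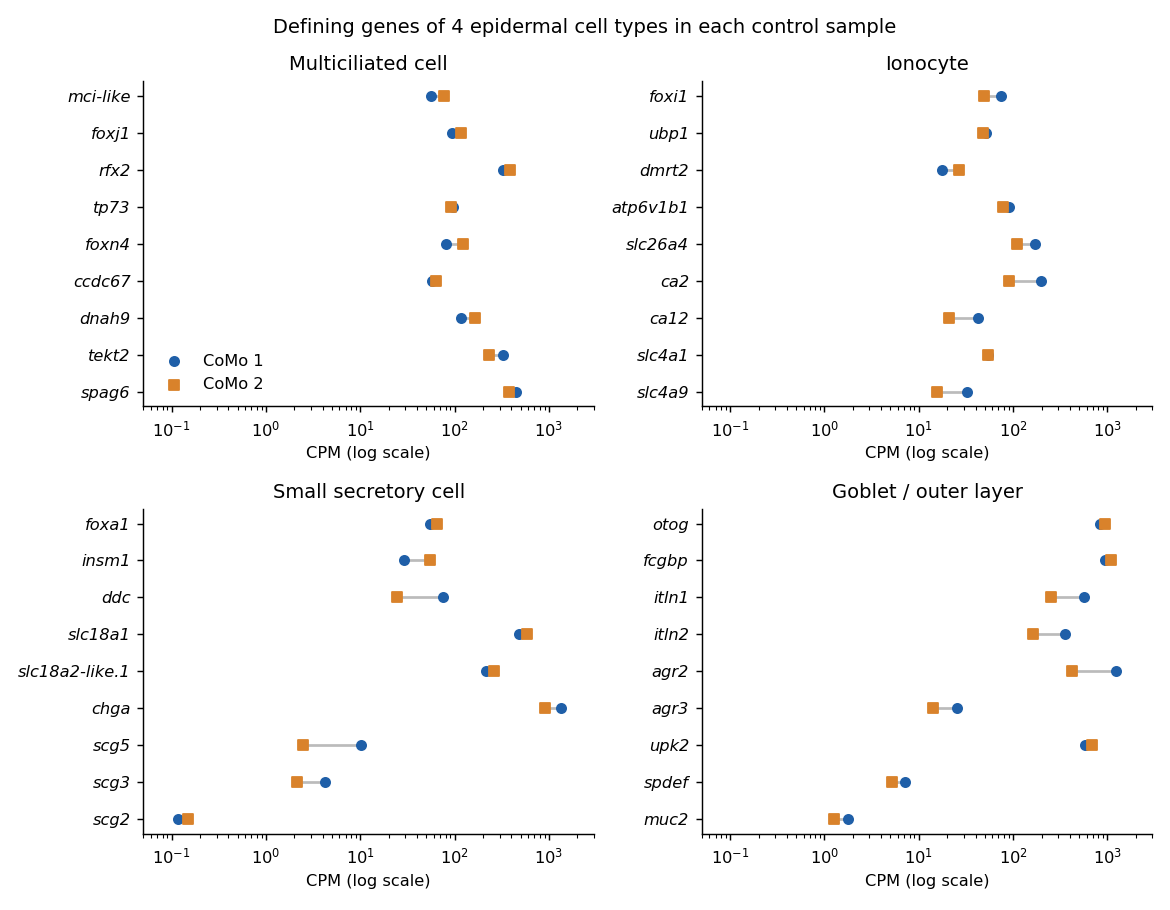
CPM in CoMo 1 (circles) and CoMo 2 (squares) of defining genes of 4 epidermal cell types, on log axes. The MCC genes shown lie between 56.6 and 442 CPM. They are a choice from the MCC lists that leaves out lower and higher members. Among these are ccdc78 (3.82 CPM in CoMo 1, 3.42 CPM in CoMo 2) and tubb4b (3083 CPM and 4049 CPM in the same order). All 9 small secretory cell genes are drawn, from 0.117 CPM for scg2 to 1326 CPM for chga, both in CoMo 1. The widths of the ranges are therefore not comparable.

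Ionocyte genes were read at lower levels. Of 15 listed genes, 13 exceeded 10 CPM in both samples and 1 exceeded 100 CPM, and the median was 34.0 CPM. foxi1, the forkhead factor that specifies ionocytes, had 75.1 CPM in CoMo 1 and 48.9 CPM in CoMo 2. ubp1, a factor for their later differentiation, had 51.0 CPM in CoMo 1 and 48.5 CPM in CoMo 2, and dmrt2 had 17.6 CPM in CoMo 1 and 26.5 CPM in CoMo 2. All 3 regulators were therefore present, and foxi1 and dmrt2 differed between the samples in opposite directions.

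Among the transport genes, ca2, a carbonic anhydrase that supplies protons and bicarbonate, had 199 CPM in CoMo 1 and 89.5 CPM in CoMo 2. The anion exchanger pendrin (slc26a4) had 172 CPM in CoMo 1 and 111 CPM in CoMo 2, and slc4a1, an anion exchanger of another family, had 53.8 CPM in CoMo 1 and 54.8 CPM in CoMo 2. atp6v1b1, an ionocyte subunit of the proton pump, had 91.2 CPM in CoMo 1 and 78.6 CPM in CoMo 2. bsnd, an accessory subunit of chloride channels, was lowest, with 2.7 CPM in CoMo 1 and 3.21 CPM in CoMo 2. Subunits of the proton pump that all cells use were also read, 9 of 9 above 10 CPM with a median of 66.7 CPM. Among them, atp6v0e1 had 136 CPM in CoMo 1 and 117 CPM in CoMo 2, and the lowest, atp6v1a, had 29.1 CPM in CoMo 1 and 22.2 CPM in CoMo 2. Within the ionocyte list, 12 of the 15 genes were higher in CoMo 1, and the sum of the list in CoMo 2 was 0.674 times that in CoMo 1.

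The small secretory cell list was uneven, with mean levels from 0.133 to 1122 CPM and a median of 49.5 CPM. foxa1, the forkhead factor that marks these cells, had 54.2 CPM in CoMo 1 and 65.1 CPM in CoMo 2. chga, a core protein of secretory granules, had 1326 CPM in CoMo 1 and 918 CPM in CoMo 2. The vesicular monoamine transporter genes slc18a1 and slc18a2-like.1, which load serotonin into granules, had 478 and 215 CPM in CoMo 1, against 578 and 259 CPM in CoMo 2. ddc, which makes serotonin from its precursor, had 74.3 CPM in CoMo 1 and 24.6 CPM in CoMo 2. insm1, a zinc finger factor of neuroendocrine cells, had 29.1 CPM in CoMo 1 and 54.8 CPM in CoMo 2. In contrast to chga, the genes scg5, scg3 and scg2 were low. scg5 had 10.2 CPM in CoMo 1 and 2.45 CPM in CoMo 2, scg3 had 4.23 CPM in CoMo 1 and 2.15 CPM in CoMo 2, and scg2 had 2 read pairs in CoMo 1 and 7 in CoMo 2. Of these 9 genes, 6 exceeded 10 CPM and 3 exceeded 100 CPM in both samples.

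The goblet and outer layer list had a median of 107 CPM, and 14 of its 18 genes exceeded 10 CPM in both samples. The secreted proteins fcgbp and otog had 934 and 843 CPM in CoMo 1, against 1089 and 938 CPM in CoMo 2. otog encodes otogelin, a mucin-like protein of the larval skin. The bladder plaque gene upk2 had 579 CPM in CoMo 1 and 679 CPM in CoMo 2. agr2, a disulfide isomerase of mucus-producing cells and of the cement gland, had 1242 CPM in CoMo 1 and 424 CPM in CoMo 2, a 2.93-fold difference. The intelectin genes itln1 and itln2, whose lectins are released onto the skin, had 569 and 357 CPM in CoMo 1, against 251 and 162 CPM in CoMo 2. spdef, a factor of goblet cells in mammals, had 7.16 CPM in CoMo 1 and 5.19 CPM in CoMo 2, and muc2, the main gel-forming mucin gene of the mammalian gut, had 1.76 CPM in CoMo 1 and 1.27 CPM in CoMo 2. The mucin glycosyltransferase gene gcnt3 was lowest, with 0.176 CPM in CoMo 1 and 0.296 CPM in CoMo 2. Of the 18 genes, 7 lie on chromosome 7, which holds 6.96% of the named genes.

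Genes of the secretory route were picked after their values were seen, so that their high levels follow from the choice. Which cells they were read from was not tested. All 11 exceeded 100 CPM in both samples, with a median of 433 CPM, whereas 13.5% of named genes with a read did so. sec61a1, the channel into the endoplasmic reticulum, had 1209 CPM in CoMo 1 and 1120 CPM in CoMo 2. p4hb, a disulfide isomerase, had 799 CPM in CoMo 1 and 662 CPM in CoMo 2, and the coat protein gene copb2 had 518 CPM in CoMo 1 and 459 CPM in CoMo 2. Calpain genes, which encode calcium-dependent proteases, were chosen in the same way. capn8 had 1111 CPM in CoMo 1 and 882 CPM in CoMo 2, capn9 had 632 CPM in CoMo 1 and 627 CPM in CoMo 2, and 5 of the 7 exceeded 100 CPM in both samples. Of these 7 genes, 4 lie on chromosome 5, which holds 8.83% of the named genes. Other short lists were uneven as well, such as neural crest, with 3 of 5 genes on chromosome 6, which holds 7.04%. Reads that fit several calpain copies equally well were not counted.

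Keratin genes fell into a high and a low set. Beside xk81a1, krt19 had 1013 CPM in CoMo 1 and 505 CPM in CoMo 2, and krt12 had 231 CPM in CoMo 1 and 128 CPM in CoMo 2. krt16 had 8.75 CPM in CoMo 1 and 1.73 CPM in CoMo 2, and krt17 had 2.76 CPM in CoMo 1 and 2.32 CPM in CoMo 2. Only 5 keratin genes could be named, and reads shared by members of this family were not counted.

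Basal cell and basement membrane genes had a median of 167 CPM, and 10 of 11 exceeded 10 CPM in both samples. tp63, which keeps epidermal progenitors, had 269 CPM in CoMo 1 and 456 CPM in CoMo 2. The collagen XVIII gene col18a1 had 354 CPM in CoMo 1 and 365 CPM in CoMo 2, and the laminin genes lamb1 and lamc1 had 365 and 262 CPM in CoMo 1, against 312 and 290 CPM in CoMo 2. The integrin gene itgb1, a receptor for laminin, had 310 CPM in CoMo 1 and 312 CPM in CoMo 2.

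Junction genes had the highest median of the epidermal lists, 446 CPM, with 16 of 24 above 100 CPM in both samples. After ctnnb1 and cdh1, the tight junction gene cldn4 had 1225 CPM in CoMo 1 and 1670 CPM in CoMo 2, and periplakin (ppl), of the desmosome and cell envelope, had 1151 CPM in CoMo 1 and 1438 CPM in CoMo 2. cgn, encoding cingulin, had 138 CPM in CoMo 1 and 309 CPM in CoMo 2. The claudin genes differed widely among themselves, and cldn3 was lowest of the list, with 1.29 CPM in CoMo 1 and 0.654 CPM in CoMo 2.

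The transcription factors of non-neural ectoderm were led by tfap2a, with 415 CPM in CoMo 1 and 416 CPM in CoMo 2. vgll1, a cofactor of TEAD proteins, had 225 CPM in CoMo 1 and 308 CPM in CoMo 2, and the BMP target msx1 had 240 CPM in CoMo 1 and 203 CPM in CoMo 2. znf750, a factor of epidermal differentiation in mammals, had 214 CPM in CoMo 1 and 219 CPM in CoMo 2. Of the 22 genes, 17 exceeded 10 CPM in both samples. The early ventral ventx genes were low, with 78.4 CPM summed over 5 genes in CoMo 1 and 58.7 CPM in CoMo 2, and ventx3.2 was lowest with 0.411 CPM in CoMo 1 and 0.148 CPM in CoMo 2.

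**Figure D3:**
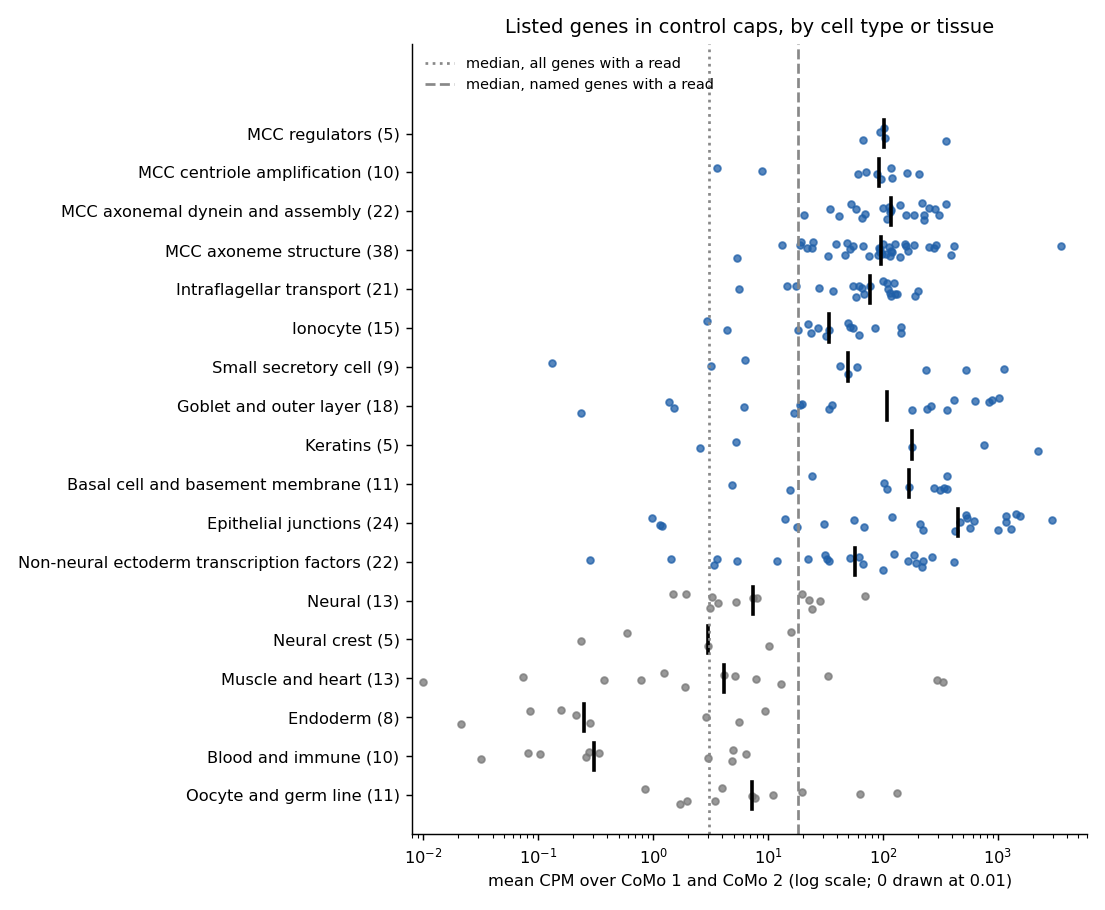
Mean CPM over both samples of every listed gene (1 point per identifier, number in brackets), on a log axis, with the list median as a black bar. Epidermal lists (blue) have medians between 34.0 and 446 CPM and lists of other tissues (grey) between 0.248 and 7.33 CPM, beside medians of 3.03 CPM for all genes with a read (dotted) and 18.2 CPM for named ones (dashed).

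BMP signals keep ectoderm epidermal, and their pathway was read at both ends. The ligand genes bmp7.1 and bmp4 had 223 and 161 CPM in CoMo 1, against 207 and 177 CPM in CoMo 2. smad1, which carries the signal to the nucleus, had 348 CPM in CoMo 1 and 462 CPM in CoMo 2, and the target gene id2 had 216 CPM in CoMo 1 and 224 CPM in CoMo 2. The secreted antagonist genes of the organizer were low. chrd had 5.40 CPM in CoMo 1 and 7.43 CPM in CoMo 2, and nog had 1.35 CPM in CoMo 1 and 1.37 CPM in CoMo 2. szl, sizzled, a ventral feedback inhibitor in this pathway, had 331 CPM in CoMo 1 and 83.9 CPM in CoMo 2, a 3.95-fold difference. In all, 9 of 12 genes of the pathway exceeded 10 CPM in both samples.

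For Notch, which spaces MCCs, the receptor gene notch1 had 127 CPM in CoMo 1 and 286 CPM in CoMo 2. The ligand gene dll1 had 181 CPM in CoMo 1 and 182 CPM in CoMo 2. The name notch2 is shared by 2 identifiers, on chromosomes 3 and 4. In that order they had 91.9 and 120 CPM in CoMo 1, against 153 and 106 CPM in CoMo 2. mib1, which activates the ligands, had 89.3 CPM in CoMo 1 and 112 CPM in CoMo 2, and the target gene hes1 had 42.8 CPM in CoMo 1 and 66.3 CPM in CoMo 2. hes7.2 was lowest, with 1.17 CPM in CoMo 1 and 2.79 CPM in CoMo 2. The median of the 16 identifiers was 31.7 CPM.

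Genes of H4K20 methylation, among them the targets of the series' other morpholinos, were all read in the control ACs. suv420h1, which turns H4K20me1 into H4K20me2, had 105 CPM in CoMo 1 and 114 CPM in CoMo 2. kmt5c, the Suv4-20h2 gene, had 46.0 CPM in CoMo 1 and 54.0 CPM in CoMo 2. setd8, the enzyme that sets H4K20me1, had 78.5 CPM in CoMo 1 and 48.5 CPM in CoMo 2, and phf8, a demethylase for H4K20me1, had 118 CPM in CoMo 1 and 139 CPM in CoMo 2. Of the reader genes, l3mbtl3 had 46.3 CPM in CoMo 1 and 33.8 CPM in CoMo 2, and l3mbtl1 had 3.29 CPM in CoMo 1 and 6.02 CPM in CoMo 2. In suv420h1 and kmt5c the samples differed by 1.09-fold and 1.17-fold.

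Cell cycle genes had a median of 98.3 CPM, and 20 of 21 exceeded 10 CPM in both samples. ccnb1.2, a mitotic cyclin, had 506 CPM in CoMo 1 and 535 CPM in CoMo 2. mcm7, of the replicative helicase, had 355 CPM in CoMo 1 and 664 CPM in CoMo 2, and pcna, the sliding clamp, had 150 CPM in CoMo 1 and 212 CPM in CoMo 2. cdc20 had 269 CPM in CoMo 1 and 225 CPM in CoMo 2, and ccna1 had 252 CPM in CoMo 1 and 238 CPM in CoMo 2. foxm1 was lowest, with 8.69 CPM in CoMo 1 and 11.1 CPM in CoMo 2. All 6 genes of the pluripotent state were read at 1 CPM or more in both samples, and 4 exceeded 10 CPM. sall4 had 277 CPM in CoMo 1 and 346 CPM in CoMo 2, and lin28a and lin28b, which block let-7 maturation, had 288 and 90.3 CPM in CoMo 1, against 281 and 80.6 CPM in CoMo 2. The Oct4 relatives pou5f3.1, pou5f3.2 and pou5f3.3, adjacent copies in the frog genome, had 15.4, 4.99 and 9.16 CPM in CoMo 1, against 23.6, 4.45 and 7.03 CPM in CoMo 2.

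The 12 named identifiers of ribosomal proteins had a median of 233 CPM, led by rpl6 with 488 CPM in CoMo 1 and 418 CPM in CoMo 2. rps15 had 401 CPM in CoMo 1 and 316 CPM in CoMo 2, rpl18 had 284 CPM in CoMo 1 and 257 CPM in CoMo 2, and rps23 had 257 CPM in CoMo 1 and 244 CPM in CoMo 2. The second rpl34 identifier had 2.06 CPM in CoMo 1 and 1.96 CPM in CoMo 2. The 18 housekeeping genes, with actg1, cirbp and actb at their head, had a median of 421 CPM and all exceeded 10 CPM. eef1a1 followed with 1898 CPM in CoMo 1 and 1434 CPM in CoMo 2, and tuba1b was lowest with 17.2 CPM in CoMo 1 and 13.3 CPM in CoMo 2. gapdh, of glycolysis, had 65.4 CPM in CoMo 1 and 108 CPM in CoMo 2.

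Markers of other tissues were mostly low, with exceptions given below. The lists for neural tissue, neural crest, muscle and heart, endoderm, blood, and the oocyte and germ line held 60 genes. Of these, 10 exceeded 10 CPM in both samples, against 58.5% of named genes with a read. Only hand2 and nkx2-5 exceeded 100 CPM in both, against 13.5% of named genes. The median of the 60 was 3.57 CPM, and together they took 0.133% of the read pairs in CoMo 1 and 0.110% in CoMo 2. The endoderm list had a median of 0.248 CPM and no gene above 10 CPM in both samples. vegt, a maternal T-box factor, had 7.58 CPM in CoMo 1 and 11.4 CPM in CoMo 2. sox17a had 1.70 CPM in CoMo 1 and 4.07 CPM in CoMo 2, darmin had 3.29 CPM in CoMo 1 and 7.96 CPM in CoMo 2, and sox17b.2 had 0.352 CPM in CoMo 1 and 0.211 CPM in CoMo 2. mixer, mix1 and hnf4b had no reverse-strand read in CoMo 1 and 15, 8 and 2 read pairs in CoMo 2. The blood list had a median of 0.307 CPM, or of 0.470 CPM in CoMo 1 alone and 0.232 CPM in CoMo 2 alone. irf8, cybb, itk and gfi1b had 7.28, 5.58, 5.58 and 3.41 CPM in CoMo 1, against 5.49, 4.24, 4.12 and 2.62 CPM in CoMo 2, whereas csf2rb had no reverse-strand read in CoMo 1 and 3 in CoMo 2.

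The neural list was not uniform. sox21-like.2 had 70.1 CPM in CoMo 1 and 69.6 CPM in CoMo 2, the highest value of the 13 genes. The neuronal genes elavl3 and tubb3, the progenitor gene nes and the adhesion gene ncam1 had 43.8, 35.5, 39.5 and 36.9 CPM in CoMo 1, against 13.2, 3.82, 8.30 and 8.59 CPM in CoMo 2. These 4 genes were all higher in CoMo 1. The patterning genes zic1, zic2, rax and olig2 had between 1.94 and 6.75 CPM in CoMo 1 and between 1.92 and 8.08 CPM in CoMo 2, and pou3f2 was lowest with 1.47 CPM in CoMo 1 and 1.48 CPM in CoMo 2. In the neural crest list, snai2 had 19.8 CPM in CoMo 1 and 11.7 CPM in CoMo 2 and sox9 had 6.34 CPM in CoMo 1 and 14 CPM in CoMo 2. The crest factors twist1 and sox10 had 0.587 and 0.411 CPM in CoMo 1, against 0.591 and 0.0633 CPM in CoMo 2, and the last of these values rests on 3 read pairs.

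The muscle and heart list joined very high and very low genes. hand2, a bHLH factor known from heart and limb, had 445 CPM in CoMo 1 and 225 CPM in CoMo 2, and nkx2-5, a homeobox factor known from the heart, had 278 CPM in CoMo 1 and 310 CPM in CoMo 2. The T-box gene tbx20 had 47.0 CPM in CoMo 1 and 19.1 CPM in CoMo 2. In contrast, the 7 genes for muscle structure together had 37.9 CPM in CoMo 1 and 25.5 CPM in CoMo 2, none above 10 CPM in both. The highest of them, myh6, had 16.1 CPM in CoMo 1 and 9.88 CPM in CoMo 2, and myog, the myogenic factor, had no reverse-strand read in either sample and 15 forward-strand reads in each. Other factors with known roles in the heart, chosen after their values were seen, ranged widely. tbx3 had 306 CPM in CoMo 1 and 310 CPM in CoMo 2, isl1 had 206 CPM in CoMo 1 and 267 CPM in CoMo 2, and nkx2-3 had 121 CPM in CoMo 1 and 178 CPM in CoMo 2. tbx2 had 66.0 CPM in CoMo 1 and 110 CPM in CoMo 2. nkx2-6 had 24.3 CPM in CoMo 1 and 9.16 CPM in CoMo 2. hand1, a relative of hand2, had 0.470 CPM in CoMo 1 and 1.1 CPM in CoMo 2.

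Among oocyte and germ line genes, the egg coat gene zp4 had 94.8 CPM in CoMo 1 and 169 CPM in CoMo 2, and tdrd6, of the germ granules, had 48.2 CPM in CoMo 1 and 78.7 CPM in CoMo 2. zp2 had 17.2 CPM in CoMo 1 and 22.2 CPM in CoMo 2, 42Sp43 had 10.04 CPM in CoMo 1 and 12 CPM in CoMo 2, and figla was lowest, with 0.646 CPM in CoMo 1 and 1.06 CPM in CoMo 2. The germ cell gene dnd1 had 2.41 CPM in CoMo 1 and 1.54 CPM in CoMo 2. RNA that the egg supplied and RNA made in the cap are not separated by these counts.

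A few identifiers are named as miRNA genes, and their rows count total RNA over the gene and not the mature miRNA. mir205a had 35.2 CPM in CoMo 1 and 44.2 CPM in CoMo 2, the highest of 11. mir429 and mir200a, of the epithelial miR-200 family, had 5.05 and 4.46 CPM in CoMo 1, against 6.99 and 5.76 CPM in CoMo 2. mir449c had 1.88 CPM in CoMo 1 and 1.60 CPM in CoMo 2, while its host gene in vertebrates, cdc20b, had the values given above. These genes were chosen after their values were seen.

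The agreement of the samples was measured on 12652 genes that averaged 50 counts or more, as the log2 ratio of CoMo 2 over CoMo 1 after 0.5 CPM was added to each value. The ratio had an SD of 0.55 and a median of -0.02, and 93.7% of the genes agreed within 2-fold. Of the 12652 genes, 397 were at least 2-fold higher in CoMo 1 and 403 in CoMo 2, together 6.32%. The SD was 0.67 for genes under 10 CPM, 0.49 between 10 and 100 CPM and 0.38 between 100 and 1000 CPM. Above 1000 CPM it was 0.80 over 94 genes, of which 2 were past 2-fold. The unnamed gene23575 had 24736 CPM in CoMo 1 and 4305 CPM in CoMo 2. Xetrov90027392m.g had 4118 CPM in CoMo 1 and 38.4 CPM in CoMo 2. The size of its difference depended on the strand. In raw reads it had 70118 reverse and 13176 forward in CoMo 1, and 1818 reverse and 23435 forward in CoMo 2. CoMo 2 was 2.78 times as deep, and the forward reads rose by less than that, so relative to depth both strands were higher in CoMo 1.

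**Figure D4:**
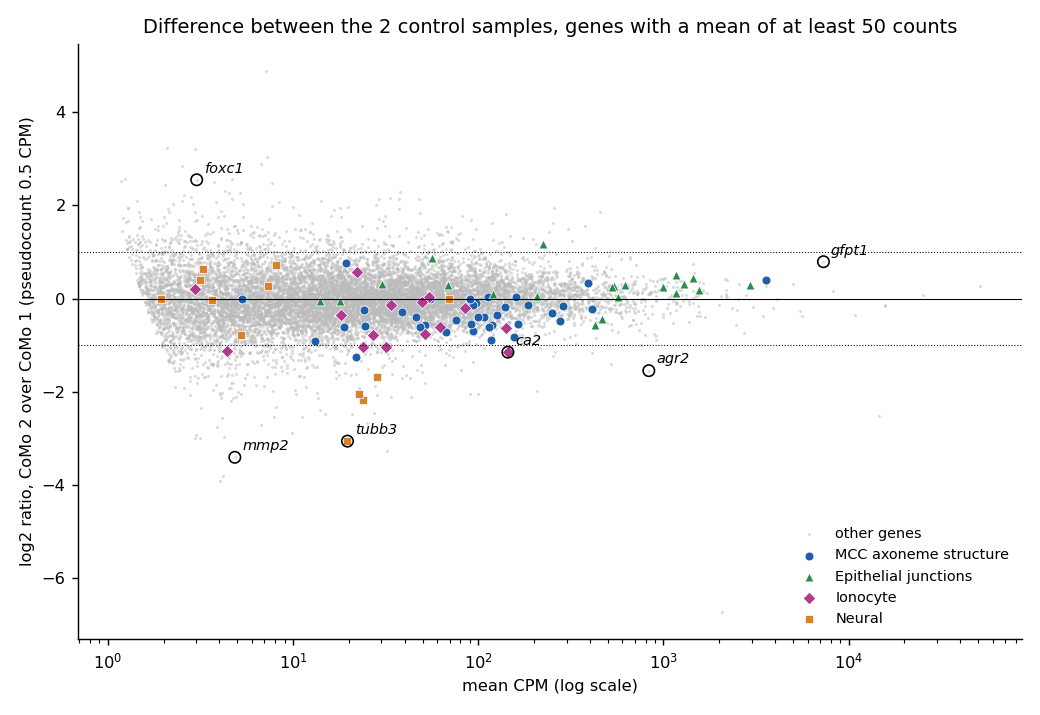
Log2 ratio of CoMo 2 over CoMo 1 against the mean CPM for 12652 genes (grey), with 4 lists in colour and some genes ringed and named; dotted lines mark 2-fold. Most points lie within 2-fold (93.7%), axoneme genes lie mostly below 0, junction genes mostly above 0, and 4 neural genes lie below -1.

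The genes with a symbol that were most in excess in CoMo 1 were mmp2, tubb3, pnmt, mal-like.2 and cyp26c1. mmp2, a matrix protease, had 9.28 CPM in CoMo 1 and 0.422 CPM in CoMo 2, a log2 ratio of -3.41, and tubb3 had a log2 ratio of -3.06. pnmt, which makes adrenaline, had 7.87 CPM in CoMo 1 and 0.570 CPM in CoMo 2. cyp26c1, which degrades retinoic acid, had 12 CPM in CoMo 1 and 1.39 CPM in CoMo 2, and mal-like.2 had 17.7 CPM in CoMo 1 and 1.98 CPM in CoMo 2. Of these 5 genes, tubb3 is also on the neural list.

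Most in excess in CoMo 2 were foxc1, grin3b, p2ry10, grn and cd163. foxc1, a forkhead gene of mesoderm and neural crest, had 0.529 CPM in CoMo 1 and 5.51 CPM in CoMo 2, a log2 ratio of 2.55. The glutamate receptor gene grin3b had 0.763 CPM in CoMo 1 and 6.69 CPM in CoMo 2, and the purinergic receptor gene p2ry10 had 1.23 CPM in CoMo 1 and 7.83 CPM in CoMo 2. grn, progranulin, had 10.5 CPM in CoMo 1 and 47.6 CPM in CoMo 2, and cd163, a scavenger receptor of macrophages in mammals, had 0.235 CPM in CoMo 1 and 2.64 CPM in CoMo 2. Of these 5 genes, 4 were below 10 CPM in both samples.

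The samples also differed by whole lists, by less than 2-fold in most genes. Axonemal dyneins, axoneme structure and intraflagellar transport comprised 81 identifiers, of which 69 were higher in CoMo 1 and 12 in CoMo 2, with a median log2 ratio of -0.37 and 1 past 2-fold (rsph14, 30.9 CPM in CoMo 1 and 12.6 CPM in CoMo 2). Of the 5 MCC regulators, 4 were higher in CoMo 2, with a median log2 ratio of 0.31, whereas the 10 centriole genes were split, 6 higher in CoMo 2 and 4 in CoMo 1, with a median of 0.07. Junction genes were higher in CoMo 2 in 17 of 21 cases with a median of 0.26, and cell cycle genes in 15 of 21 with a median of 0.23. All 12 ribosomal protein identifiers were higher in CoMo 1, with a median of -0.30. The ionocyte median was -0.61, and ca2, ca12 and slc4a9 were past 2-fold, each higher in CoMo 1. Of the 18 housekeeping genes, 11 were higher in CoMo 1, with a median of -0.16, and the 4 glycolysis genes within this list, singled out after their values were seen, were higher in CoMo 2, with a median of 0.72. Over all 12652 genes the median was -0.02, and 6.32% were past 2-fold. Of the 13 neural markers, the 4 past 2-fold were elavl3, tubb3, nes and ncam1. They summed to 156 CPM in CoMo 1 and 33.9 CPM in CoMo 2. The other 9 summed to 102 CPM in CoMo 1 and 106 CPM in CoMo 2. As the 4 are those that differed most, this contrast follows from the split. The part of the neural genes in the other differences was not tested. With CoMo 2 thinned to the depth of CoMo 1, the SD of the log2 ratio was 0.53. Genes within a list are not independent of each other, and each of these differences is between a single pair of pools.

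**Figure D5:**
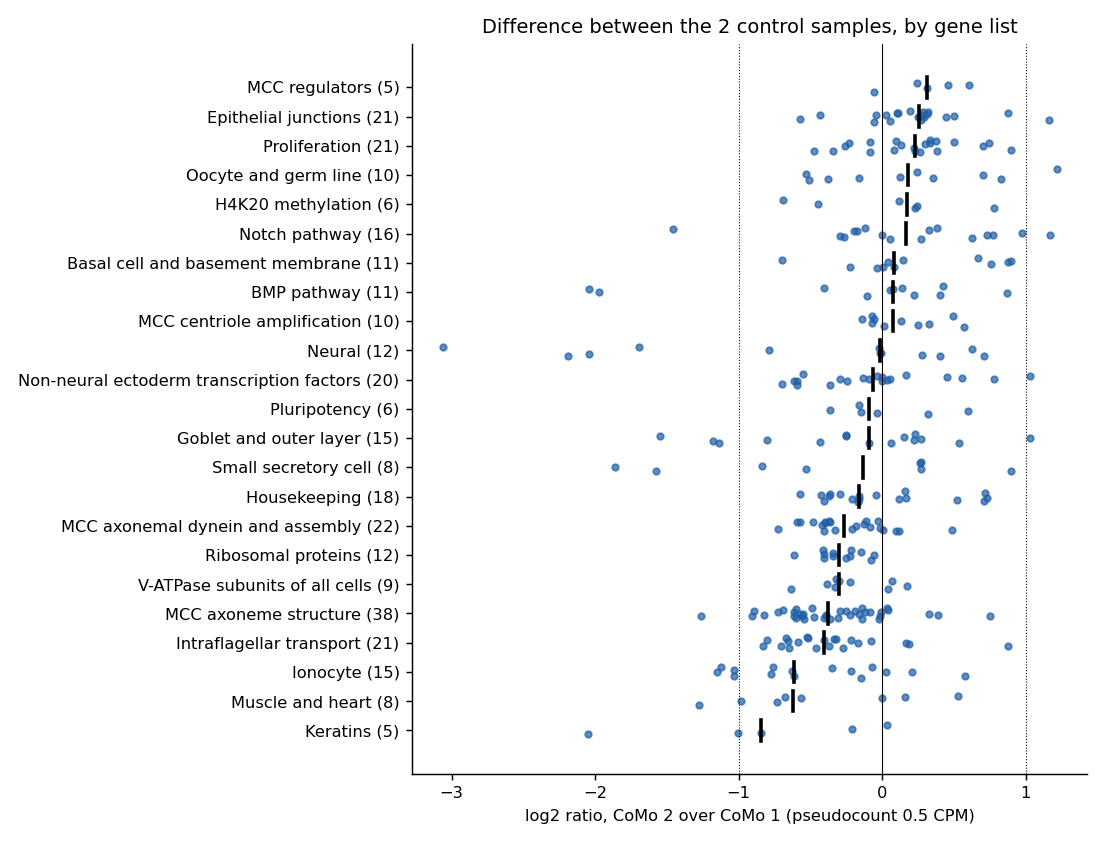
Log2 ratio of CoMo 2 over CoMo 1 of the listed genes that averaged 50 counts or more (number in brackets), ordered by the list median (black bar); dotted lines mark 2-fold. Among the 23 lists drawn, which leave out those with under 5 such genes and those chosen after values were seen, the medians run from -0.85 for 5 keratin genes to 0.31 for 5 MCC regulators, and the neural list has 4 genes below -1 although its median is -0.02.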

How the data were processed

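Per the labels and the study's methods, total RNA of pooled ACs was depleted of ribosomal RNA, made into libraries with a directional kit and sequenced with paired ends. The authors aligned the reads to the X. tropicalis assembly v9.1 with STAR 2.7.1a and deposited its gene counts, without normalization, for either strand and each strand alone. Reads with several alignments are not in these counts. The reverse-strand counts were used, since 98.0 to 98.2% of stranded read pairs lay there. The row MissingGeneID, 0.154% of the gene reads of CoMo 1 and 0.0675% of those of CoMo 2, was left out. Counts were scaled to CPM per sample with Python 3.11.15 and pandas 2.3.3. edgeR 4.0.16 (TMM) and DESeq2 1.42.0 gave other scalings only. Names and chromosomes came from the study's supplementary tables, whose fold changes and p-values were not used. The genes named are the 25 symbols with the highest mean CPM, the regulators, the 4 highest and the lowest genes of 26 lists, the genes of H4K20 methylation, and the 5 symbols per direction that differed most between the samples. Some of these genes are not reported here. The control samples and the lists were chosen with earlier results of these data known. Summaries were tested on simulated data. Levels per coding length and promoter motifs, which were planned, were not computed for want of lengths and sequences. With 2 samples, precision is limited by their difference more than by depth.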

Additional observations from a re-analysis of the deposited data

Results flagged for a closer look

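The forward-strand counts, which enter no CPM value above, held a signal far above the level of 3 read pairs. Forward read pairs were 1.82% of the stranded gene read pairs in CoMo 1 and 1.97% in CoMo 2. In 329 genes the forward strand had more reads than the reverse strand in both samples, with at least 50 forward reads in each, and these genes held 66.3% of all forward reads in CoMo 1 and 65.8% in CoMo 2. The gene with the most was Xetrov90006554m.g, with 75068 forward reads in CoMo 1 and 227972 in CoMo 2. Among genes with a symbol, tk1, a thymidine kinase of the cell cycle, had 6023 forward and 695 reverse reads in CoMo 1 and 16294 forward and 2200 reverse reads in CoMo 2. nme6 had 5314 forward and 29 reverse reads in CoMo 1 and 12285 forward and 83 reverse reads in CoMo 2. The source of these reads was not tested.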

How the results depend on the processing

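The number of genes at 1 CPM in both samples, the share of the top 100 genes and the SD of the log2 ratio moved by less than 1.5 times under every alternative run for them. The median CPM of the MCC regulators was 120, of the dynein list 139, of axoneme structure 114, of the small secretory cell list 59.1, of the goblet list 127 and of the basal list 199 when the 10 top genes were left out of the total. Counts from either strand gave 118 for the dynein list, and TMM scaling gave 48.9 for the small secretory cell list. From 1 sample alone, the medians ranged from 119.6 to 120.5 for the dynein list, from 32.2 to 42.8 for the ionocyte list, from 54.2 to 54.8 for the small secretory cell list and from 91.4 to 98.3 for the goblet list. The median of all genes was 0.164 CPM without a filter and 15.3 CPM over genes with at least 10 reads in each sample. Of 384 listed or named identifiers, 11 moved by over 1.5 times with counts from either strand, namely rps29 (184 CPM on the reverse strand and 0.620 CPM on either strand), csf2rb (0.0317 and 2.17 CPM), myog (0 and 0.603 CPM), hnf4b (0.0211 and 0.184 CPM), muc2, neb, lcp2, enkur, h3f3b, cd79b and ccne2. The medians of the BMP pathway, neural, neural crest and blood lists also moved by over 1.5 times with 1 sample alone. The BMP pathway median of 110 CPM was 67.1 CPM in CoMo 2. The neural median of 7.33 CPM was 4.07 CPM in CoMo 2, the neural crest median of 3.02 CPM was 0.587 CPM in CoMo 1 and 5.51 CPM in CoMo 2, and the blood median of 0.307 CPM was 0.470 CPM in CoMo 1. No paired analysis was possible because the samples form 1 group and no value comes from a test. Each difference between the samples has no further replicate, and genes under the level of 3 read pairs cannot be told from absent ones at this depth.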

Other observations

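Among the next 35 genes with a symbol by mean CPM, several are epithelial or secreted and are named here after their values were seen. esrp1, a splicing regulator of epithelial cells, had 865 CPM in CoMo 1 and 1165 CPM in CoMo 2. The membrane protein gene emp2 had 1069 CPM in CoMo 1 and 1126 CPM in CoMo 2, and the lysosomal tetraspanin gene cd63 had 1202 CPM in CoMo 1 and 1145 CPM in CoMo 2. The secreted glycoprotein gene olfm4 had 1006 CPM in CoMo 1 and 584 CPM in CoMo 2. anxa2, a calcium-dependent membrane-binding protein, had 1186 CPM in CoMo 1 and 635 CPM in CoMo 2.

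Of 1227 identifiers named only by a LOC number, 896 had an entry in RefSeq (UCB_Xtro_10.0, used for names alone) and 120 of them carry a gene symbol there. By mean CPM, the first was ptmap12, with 1776 CPM in CoMo 1 and 1364 CPM in CoMo 2. The next were capn8.3, a further calpain, with 1396 CPM in CoMo 1 and 1350 CPM in CoMo 2, and clca3p, a relative of the chloride channel accessory genes of goblet cells, with 1082 CPM in CoMo 1 and 1294 CPM in CoMo 2. slc26a4l, a relative of pendrin, had 135 CPM in CoMo 1 and 52.2 CPM in CoMo 2.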
